A study of Mus musculus with 10 samples.

Results

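The enzymes that cut and carry microRNA precursors were followed in mouse livers in which the last of these enzymes had been deleted. The genes were Dicer1, Drosha, Dgcr8, Xpo5, Tarbp2 and Prkra. These 6 of 12366 measured genes were found by their symbols in the platform annotation, which gave 12 of the 25995 probe sets in the table, 2 for each gene. The livers came from 5 DicerloxP/loxP;Afp-Cre+ mice (mutant) and 5 control mice, all 28 days old, of mixed strain and fasted for 5 hours. The labels do not give the genotype of the controls. Afp, which drives the Cre recombinase, is active in the hepatoblasts of the fetal liver, so blood, vessel and connective tissue cells of a mutant liver would keep Dicer1. Each liver gave 1 expression array, read as log2 signal per probe set.

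MicroRNAs are made in steps. In the nucleus, the ribonuclease DROSHA and its RNA-binding partner DGCR8 cut a hairpin out of a long primary transcript, and exportin 5, encoded by Xpo5, carries the hairpin to the cytoplasm. There DICER1, with its double-stranded RNA-binding partners TRBP (Tarbp2) and PACT (Prkra), removes the loop and leaves a short duplex, of which an Argonaute protein keeps a strand to silence matching messages. In hepatocytes this route supplies the microRNAs that set the levels of many metabolic and growth genes.

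The steps can be read off a hairpin. Mir26a-2 is shown because it lies inside Ctdsp2, a host gene described below, of whose 3 probe sets 1 was called higher and 2 lower in mutant liver. The RefSeq hairpin (GRCm38.p6, chr10:126995530-126995613, plus strand) holds the piece that DROSHA releases, the capitals mark the mature strands that DICER1 sets free, and the lower case run between them holds the loop.
Mir26a-2: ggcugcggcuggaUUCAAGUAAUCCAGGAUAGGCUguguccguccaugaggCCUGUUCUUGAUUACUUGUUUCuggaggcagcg

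The strength of the deletion was read first. Every mutant liver had less Dicer1 signal than every control on both probe sets of the gene, and these held ranks 1 and 2 by p among all 25958 probe sets tested. On probe set 1427941_at, mutant replicates 1 to 5 stood at 5.94, 5.60, 5.42, 5.94 and 5.84 on the log2 scale, against 8.07, 8.10, 7.99, 8.08 and 8.04 in control replicates 1 to 5. On probe set 1460571_at the mutants stood at 7.12, 7.0, 7.20, 6.97 and 6.98, against 8.18, 8.08, 8.12, 7.91 and 8.12 in the controls. The groups were far apart on both, and the order of the mutants differed between the probe sets: replicate 4 was among the highest on the first and the lowest on the second.

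As a share of the control level, taken back to the linear scale, Dicer1 signal in mutants was 20.2% on 1427941_at, with a 95% interval of 17.3% to 23.6%. On 1460571_at it was 49.1%, with a 95% interval of 44.3% to 54.4%. These shares come from the differences of -2.31 (SE 0.10, limma adjusted p = 4.1e-05) and -1.03 (SE 0.07, limma adjusted p = 0.000678), and both depend on the authors' treatment of background, which the sources used here do not state. In whole liver RNA, fewer cells that contain a transcript and less of it in each cell cannot be told apart.

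The fall was unequal between the probe sets of Dicer1. Within each liver, 1427941_at minus 1460571_at ran from -1.78 to -1.03 in mutants, against -0.13 to 0.17 in controls. The groups differed by -1.28 in this gap (exact permutation test over the 10 livers, two-sided p = 0.00794, the smallest that 5 against 5 can give, and 0.0238 adjusted over the 6 genes compared in this way). Mutant replicate 3 had the widest gap, since it was the lowest mutant on 1427941_at and the highest on 1460571_at. Where either probe set lies relative to the floxed part of the gene is not stated in the labels or files, so neither value measures the share of recombined cells.

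**Figure D1:**
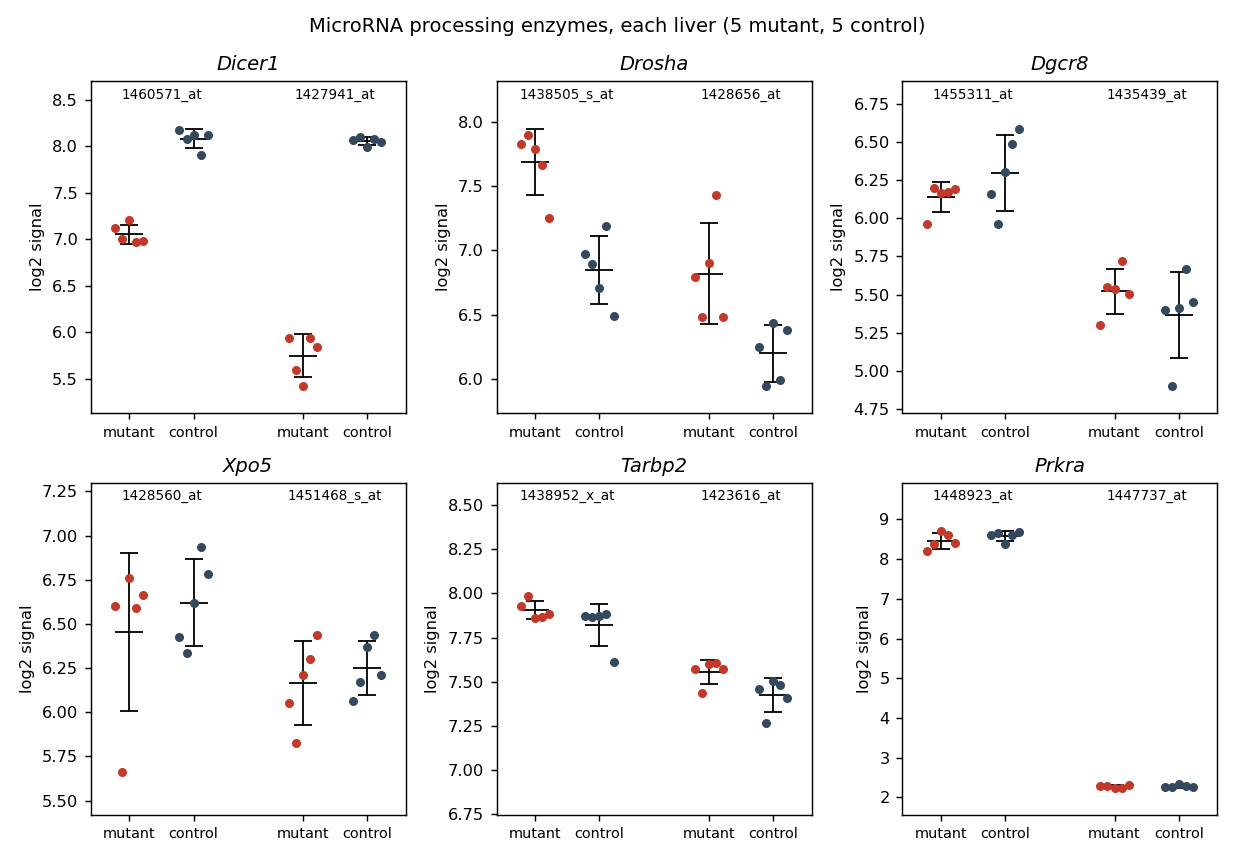
Log2 signal of each liver for the 12 probe sets of the 6 genes, with mutant livers (red) left of control livers (blue-grey) for each probe set; bars show the mean and 1 SD of 5 livers, and the vertical scale differs between panels. Dicer1 mutants lie below every control on both probe sets, Drosha mutants lie above every control on both, and the groups of the other genes overlap.

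Drosha, whose product makes the first cut, was higher in mutant liver. On probe set 1438505_s_at the mutants stood at 7.83, 7.90, 7.79, 7.67 and 7.26, against 6.97, 6.89, 6.70, 7.19 and 6.49 in controls. All 5 mutants lay above all controls, but mutant replicate 5 lay only just above control replicate 4. The difference was 0.84 (SE 0.16, limma adjusted p = 0.0133), or 179% of the control level with a 95% interval of 140% to 228%. It passed in each of the 10 fits that left out 1 liver, with differences from 0.75 to 0.95, the largest without mutant replicate 5.

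The other Drosha probe set, 1428656_at, had values of 6.79, 6.48, 6.90, 7.44 and 6.48 in mutants, against 6.25, 5.94, 6.44, 5.99 and 6.38 in controls. The groups again did not overlap, but the lowest mutants were within 0.1 of the highest control. Its difference of 0.62 (SE 0.19, limma adjusted p = 0.0598) missed the threshold of 0.05. It passed without mutant replicate 5 (adjusted p = 0.0343) and under 5 of 7 other settings, within 0.0209 to 0.103 over those 7. The difference between the 2 Drosha probe sets did not separate the groups (exact permutation p = 0.460).

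Dgcr8, the partner that recognises the hairpin for DROSHA, was not called. Probe set 1455311_at ran from 5.96 to 6.20 in mutants and from 5.96 to 6.58 in controls, a difference of -0.16 (95% interval -0.42 to 0.10, limma adjusted p = 0.421). Probe set 1435439_at ran from 5.30 to 5.72 in mutants and from 4.90 to 5.67 in controls, a difference of 0.16 (95% interval -0.15 to 0.46, limma adjusted p = 0.518). The differences were of opposite sign, and the groups overlapped on both. Their gap within each liver, 1455311_at minus 1435439_at, was 0.45 to 0.69 in mutants, against 0.76 to 1.13 in controls (exact permutation p = 0.00794, 0.0238 adjusted over the 6 genes). Dicer1 and Dgcr8 were the genes whose probe sets moved unequally in this comparison, while Drosha, Xpo5, Tarbp2 and Prkra had an exact p from 0.405 to 0.643.

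Xpo5, the export receptor of the hairpins, gave differences of -0.16 (95% interval -0.64 to 0.32) on 1428560_at and -0.09 (95% interval -0.35 to 0.18) on 1451468_s_at. The limma adjusted p were 0.696 and 0.720. Mutant livers lay between 5.66 and 6.76 on the first, against 6.34 and 6.94 in controls. Mutant replicate 2 was lowest on both probe sets, at 5.66 and 5.82, and the difference on 1428560_at was 0.03 without it. Neither probe set told the groups apart, and the wide intervals leave room for a moderate change in either direction.

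Tarbp2, which encodes the DICER1 partner TRBP, had small positive differences. On 1423616_at the mutants stood at 7.57, 7.44, 7.60, 7.60 and 7.57, against 7.46, 7.27, 7.51, 7.48 and 7.41 in controls, so 4 of 5 mutants lay above all controls. The difference of 0.13 (SE 0.06, limma adjusted p = 0.150) did not pass, except after quantile normalization of the arrays (adjusted p = 0.0422). On 1438952_x_at, a kind of probe set that can also bind other transcripts, it was 0.09 (95% interval -0.05 to 0.22, limma adjusted p = 0.404), with mutants from 7.86 to 7.99 and controls from 7.61 to 7.88. The upper ends of the intervals, 0.26 and 0.22, lie below the Drosha differences of 0.84 and 0.62. They lie above 0.195, the lower end of the Drosha interval on 1428656_at.

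Prkra, which encodes the other DICER1 partner, PACT, also an activator of the kinase PKR, showed no call. Probe set 1448923_at ran from 8.21 to 8.70 in mutants and from 8.37 to 8.69 in controls, a difference of -0.13 (95% interval -0.35 to 0.10, limma adjusted p = 0.475). Probe set 1447737_at stayed between 2.24 and 2.31 in mutants and between 2.25 and 2.34 in controls. All 10 livers were below 3.60 there, the 25th percentile of all values, so this probe set carries little information on Prkra.

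**Figure D2:**
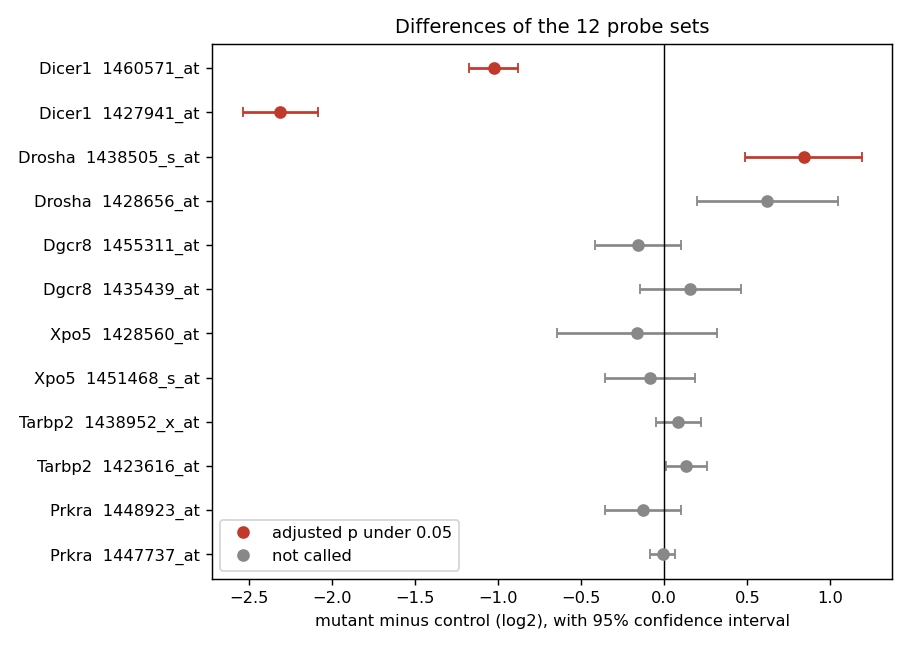
Difference of mutant minus control on the log2 scale for each probe set, with its 95% confidence interval from limma over 5 livers in each group; red marks an adjusted p under 0.05. The Dicer1 intervals lie between -2.53 and -0.88, the Drosha intervals lie above 0, and those of the other genes include or nearly touch 0.

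Of the 12 probe sets, 2 were called lower (both of Dicer1) and 1 was called higher (of Drosha). Over all probe sets tested, 7.39% were called lower and 5.8% were called higher, so the number of calls among the 12 is not in itself a finding. Groups did not overlap for 4 of the 12, the 2 of Dicer1 and the 2 of Drosha, against 10.3% of all probe sets. The median difference of the 6 genes, each by its probe set with the highest mean, was -0.14, and that of all 12366 genes was -0.01.

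**Figure D3:**
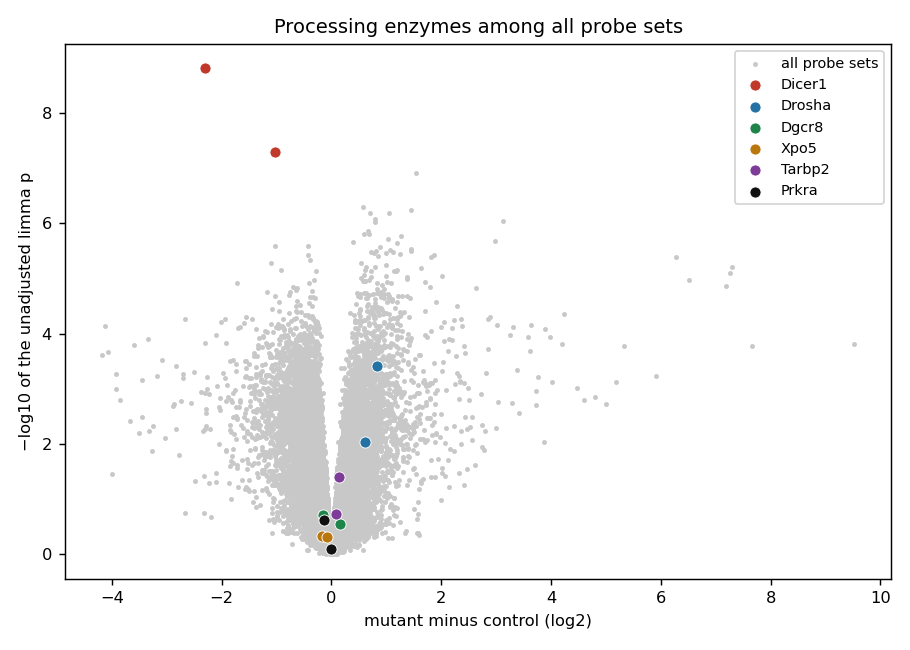
Every probe set tested, with the difference of mutant minus control on the log2 scale across and the −log10 of the unadjusted limma p upwards; large coloured points are the 12 probe sets of the processing enzymes. The Dicer1 points are the highest of all, Drosha lies among many other raised probe sets, and the remaining points lie near the foot of the plot.

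Mutant livers also differed in some cell type markers. Of 10 listed hepatocyte markers 8 were measured, and 7 of these averaged 12.11 to 16.34 in mutants and 11.93 to 16.44 in controls, while Ass1 averaged 8.65 in mutants and 7.94 in controls. Of the 8, 0 were called by limma, and 2 had an unadjusted p under 0.05. Of 10 measured Kupffer cell markers 5 were called higher, against 7.29% of all genes. Their summed linear signal ran from 19575 to 27997 in mutants, against 10888 to 18898 in controls. Of 9 stellate cell markers 4 were called higher, with 22901 to 34955 in mutants against 17394 to 20207 in controls. Of 9 sinusoidal endothelial markers 1 was called lower, which is near the 9.56% of all genes called lower. Their summed signal ran from 6148 to 7149 in mutants, against 6745 to 8944 in controls. Of 4 biliary, 4 lymphocyte and 3 erythroid markers 0 were called by limma, with 1, 2 and 0 at an unadjusted p under 0.05, and no marker was at 0 on this scale. The part of these cells in the Drosha and Dicer1 values was not tested. The 3′ minus 5′ signal of beta-actin, a measure of RNA integrity, ran from 0.83 to 1.04 in mutants and from 0.88 to 0.98 in controls (exact permutation p = 0.746).

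The patterns across the livers that were most like those of the deleted gene and of Drosha were looked up among 6074 named genes at or above the median level. For Dicer1, by probe set 1460571_at, Pearson's r over the 10 livers was highest for C1qbp (0.959), Cox6a1 (0.958), Ndufa4 (0.944), Grcc10 (0.942) and Tars (0.942). They head a longer run, since 58 of the 6074 genes (0.955%) had r over 0.9 with Dicer1. C1qbp encodes a mitochondrial matrix protein, Cox6a1 and Ndufa4 encode proteins of the respiratory chain, and Tars encodes a threonyl-tRNA synthetase. After the group means were taken out, r with Dicer1 was between 0.00 and 0.68, so for some of these genes little of the likeness is left within groups.

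For Drosha, by 1438505_s_at, the closest genes were Hipk2 (r = 0.981), Prkacb (0.974), Slc22a23 (0.967), Cers6 (0.963) and Sh3bgrl2 (0.961), while 89 of the 6074 genes (1.47%) had r over 0.9. Hipk2 encodes a nuclear kinase, Prkacb a catalytic subunit of protein kinase A and Cers6 a ceramide synthase. Here r remained between 0.83 and 0.92 after the group means were taken out. These genes were higher in mutants by 0.41 to 1.38, each with a limma adjusted p under 0.05. They follow probe set 1438505_s_at from liver to liver as well as between groups. The other Drosha probe set, 1428656_at, had an r of only 0.589 with 1438505_s_at over the 10 livers, so this likeness belongs to 1 probe set of Drosha. The 10 livers share 2 groups, and these values of r are a description of genes picked for being the highest.

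Among proteins that assist the processing enzymes, calls were about as frequent as over all genes. Of 26 measured cofactors, 2 were higher and 2 were lower, with a median difference of 0.03, and over all genes 7.29% were called higher and 9.56% lower. The subunits of the nuclear cap-binding complex, which binds capped primary transcripts and links them to processing, were both lower. Ncbp2 averaged 8.39 ± 0.19 in mutants and 8.99 ± 0.11 in controls (SD, n = 5 each), a difference of -0.60 (SE 0.09, limma adjusted p = 0.00881). Ncbp1 averaged 5.90 ± 0.53 in mutants and 6.72 ± 0.16 in controls (SD, n = 5 each), a difference of -0.82 (SE 0.23, limma adjusted p = 0.0460). The groups did not overlap for either, and the other 2 probe sets of Ncbp2 were not called.

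The higher cofactors were Ddx17, an RNA helicase of the DROSHA complex, and Tut4, a terminal uridylyltransferase that tags precursor hairpins. Ddx17 averaged 11.98 ± 0.21 in mutants and 11.60 ± 0.10 in controls (SD, n = 5 each), a difference of 0.38 (SE 0.10, limma adjusted p = 0.0387). Its groups overlapped, and 1 of its 2 probe sets was called. Ddx5, another listed cofactor, was not called by its highest-mean probe set (0.23, limma adjusted p = 0.0718). However, 3 of the 5 probe sets of Ddx5 were called higher. Tut4 averaged 10.38 ± 0.14 in mutants and 9.86 ± 0.31 in controls (SD, n = 5 each), a difference of 0.52 (SE 0.14, limma adjusted p = 0.0445), and 1 of its 5 probe sets was called. The Ncbp2 call held in all 10 fits that left out 1 liver. The Ddx17 call held only without mutant replicate 5, the Tut4 call only without control replicate 4 and the Ncbp1 call only without mutant replicate 5 (adjusted p up to 0.0871, 0.101 and 0.0970 in the other fits).

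Genes of the export step, the exportins and the Ran cycle that powers them, mostly had negative differences. Of 12 measured, 1 was called lower and 0 higher, which is no more than the 9.56% of all genes called lower. Their median difference was -0.27, against -0.01 over all genes, and limma gave 7 of them an unadjusted p under 0.05. The called gene was Ranbp1, a cofactor of the Ran GTPase, which averaged 9.40 ± 0.20 in mutants and 9.87 ± 0.13 in controls (SD, n = 5 each), a difference of -0.47 (SE 0.10, limma adjusted p = 0.0224). Its call was lost without mutant replicate 1, 2, 3 or 4 or control replicate 3 (adjusted p from 0.0509 to 0.0542), and the list had 4 lower genes without mutant replicate 5 and 2 without control replicate 1. The tRNA exporter Xpot (-0.29, adjusted p = 0.0542) and the importin recycling factor Cse1l (-0.30, adjusted p = 0.0685) did not pass in limma. Nor did Xpo6, an exporter of actin (-0.15, limma adjusted p = 0.0688). Each gene is counted here on 1 probe set, its brightest. Among their other probe sets, 1 of the 3 of Xpot was called lower, as was 1 of the 6 of Xpo7. The Xpo7 differences ran from -0.36 to 0.42.

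Among proteins that sense or bind double-stranded RNA, the substrate that DICER1 handles, 3 of 12 measured were higher, against 7.29% of all genes, and 0 lower, with a median difference of 0.29. Tlr3, an endosomal receptor for double-stranded RNA, averaged 7.57 ± 0.25 in mutants and 6.79 ± 0.13 in controls (SD, n = 5 each), a difference of 0.78 (SE 0.12, limma adjusted p = 0.00808) that both of its probe sets showed. Zbp1, a sensor of Z-form nucleic acid, differed by 1.33 (SE 0.27, limma adjusted p = 0.0171), with mutants from 7.10 to 8.12 and controls from 5.73 to 7.08. Stau1, which binds double-stranded stretches of messages, differed by 0.28 (SE 0.07, limma adjusted p = 0.0321), and its call was lost without mutant replicate 2, 3 or 4 or control replicate 1, 2, 3 or 4. Oas1a, an interferon-induced sensor, did not pass in the main fit (0.78, limma adjusted p = 0.0558). Among the fits without 1 liver it passed only without mutant replicate 5. It passed under 5 of 8 other settings, with limma adjusted p from 0.0224 to 0.0911 over those 8. Eif2ak2, which encodes the PKR kinase that PACT activates, gave 0.21 (95% interval -0.10 to 0.53, limma adjusted p = 0.379). Kupffer cell markers, given above, were also higher in these livers, and their part in these sensor values was not tested.

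Downstream of DICER1, 4 of 8 measured genes of the silencing complex were higher, against 7.29% of all genes, and 0 lower. They were the scaffold genes Tnrc6a (all 7 probe sets called higher), Tnrc6b (all 3) and Tnrc6c (both), and the helicase gene Mov10 (1 of 2). Tnrc6c differed by 0.81 (SE 0.17, limma adjusted p = 0.0204), but did not pass without control replicate 3. Kupffer and stellate cell markers were higher in the same livers (5 of 10 and 4 of 9), and their part in these values was not tested.

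Other ribonucleases that trim or degrade RNA mostly had negative differences. Of 20 measured, 5 were lower, against 9.56% of all genes, and 0 higher, with a median difference of -0.19. Exosc8, a subunit of the RNA exosome, averaged 8.30 ± 0.19 in mutants and 8.95 ± 0.07 in controls (SD, n = 5 each), a difference of -0.65 (SE 0.09, limma adjusted p = 0.00630), although its other probe set differed by 0.22. Rnaseh2a, the catalytic subunit of ribonuclease H2, differed by -0.88 (SE 0.20, limma adjusted p = 0.0226). The exosome subunits Exosc5 (-0.88, adjusted p = 0.0360) and Exosc1 (-0.55, adjusted p = 0.0354) were also lower in limma, as was Rnaseh2c. Of the 3 probe sets of Exosc1, 1 was called lower, and their differences ran up to 0.15. The number of lower genes was 1 without control replicate 4, 2 without mutant replicate 1, 3 or 4 or control replicate 1, 2, 3 or 5, and 8 without mutant replicate 5. Without 1 liver, the Rnaseh2a call was lost for mutant replicate 4 and control replicates 4 and 5, and the Exosc5 call held only without mutant replicate 2 or 5, and the Exosc1 call only without mutant replicate 2 or 5 or control replicate 5.

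**Figure D4:**
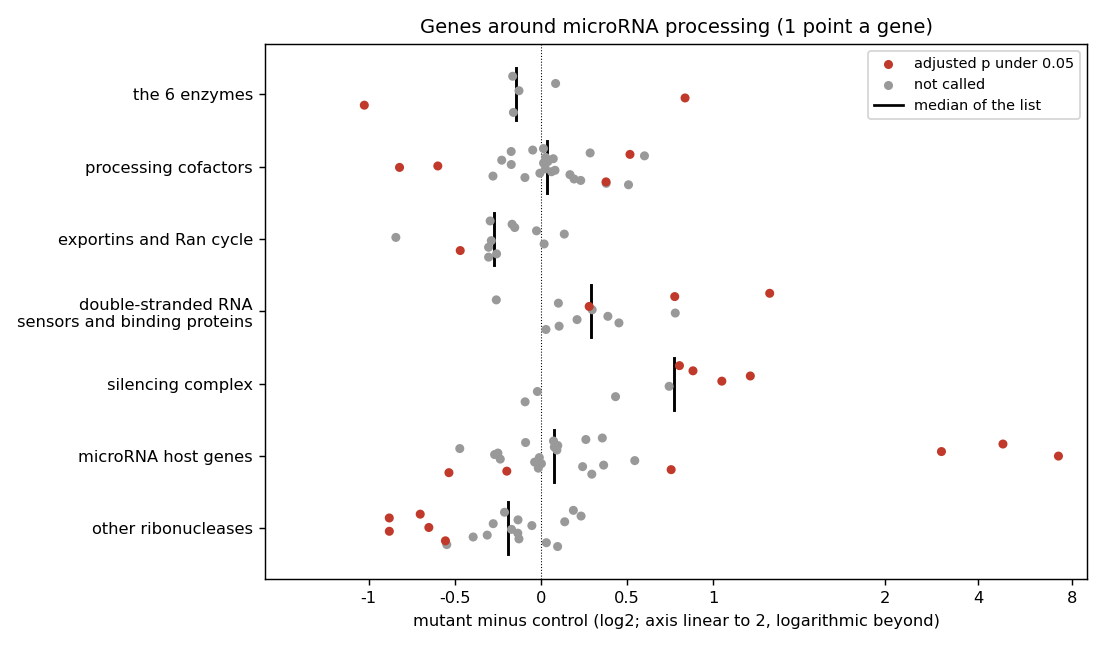
Difference of mutant minus control on the log2 scale for each measured gene of the 6 enzymes and of 6 lists of related genes, 1 point a gene by its probe set with the highest mean; red marks an adjusted p under 0.05, the black bar is the median of the list, and the axis is linear up to 2 and logarithmic beyond. Dicer1 and Drosha stand at -1.03 and 0.84 with the other 4 enzymes near 0, the exportins and other ribonucleases lie mostly below 0, and the silencing complex lies mostly above it.

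The transcripts that carry microRNA hairpins are the starting material of DROSHA. Of 25 measured host genes, 24 of which hold at least 1 hairpin of the RefSeq table within their span, 4 were higher and 2 lower, with a median difference of 0.08, and over all genes 7.29% were called higher and 9.56% lower. Of the 4 higher hosts, 3 came from 1 imprinted cluster. These were the noncoding transcripts Meg3 and Rian, higher by 7.26 and 4.80 (limma adjusted p = 0.00415 and 0.0228), and Mirg (limma adjusted p = 0.0256). The rise was uneven among mutant livers. Meg3 ran from 10.45 to 13.50 in mutants and from 4.04 to 7.97 in controls. Rian ran from 5.41 to 12.26 in mutants and from 3.36 to 5.37 in controls. Mirg ran from 3.99 to 8.08 in mutants and from 3.38 to 3.85 in controls. For Rian and Mirg the lowest mutant thus lay just above the highest control. Mirg averaged 6.54 in mutants and 3.50 in controls, a control mean below the 25th percentile of all values. The difference of its means is therefore a lower bound: at least 2.89 on the log2 scale with each control raised to that percentile. The Rian call was lost without mutant replicate 1, 3 or 4 or control replicate 3, 4 or 5, and the Mirg call without mutant replicate 2, 3 or 4 or control replicate 1, 2, 3 or 4 (adjusted p up to 0.0624).

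Outside that cluster the called hosts were small in change. Ctdsp2, which encodes a small phosphatase, averaged 10.95 ± 0.22 in mutants and 10.19 ± 0.18 in controls (SD, n = 5 each), a difference of 0.76 (SE 0.12, limma adjusted p = 0.00873). Its other 2 probe sets were called lower, down to -0.70, so its direction depends on the probe set. Its relative Ctdsp1, host of Mir26b, differed by -0.20 (SE 0.05, limma adjusted p = 0.0305), and Copz1, a coat protein gene and host of Mir148b, by -0.53 (SE 0.14, limma adjusted p = 0.0349). These 2 genes are named because they are the lower calls of the list, and they were chosen after their values were seen. The number of lower host genes was 0 without mutant replicate 1, 2, 3 or 4 or control replicate 1, 3 or 5, and 1 without control replicate 2 or 4, but 4 without mutant replicate 5. The number of higher ones was 2 without mutant replicate 3 or 4 or control replicate 3 or 4.

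The mature microRNAs of these hosts show what the missing step would yield. They are printed from RefSeq (GRCm38.p6) with the seed, bases 2 to 8, in capitals. Those printed come from the called hosts outside the imprinted cluster. The other strand of each hairpin is not printed, nor is the microRNA of Mir546, which also lies inside Ctdsp2. The miR-26 pair, from Ctdsp2 and Ctdsp1, shares its seed, and miR-148b does not share it.
mmu-miR-26a-5p: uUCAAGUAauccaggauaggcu
mmu-miR-26b-5p: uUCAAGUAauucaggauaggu
mmu-miR-148b-3p: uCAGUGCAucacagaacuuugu
The arrays measured the host transcripts and not these short RNAs, so the amount of any mature microRNA in the mutant livers was not measured here.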

How the data were processed

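Total RNA from 10 livers was amplified and labelled with biotin, per the labels' protocols, and hybridised to 1 array each. The authors deposited 1 table of values on a log2 scale. The sources used here do not say whether arrays were scaled to each other. The base of the log was read from the range of the values (0.27 to 16.65); background correction and summary are not described in them either. Array medians lay between 6.40 and 6.67, and pairs of arrays correlated between 0.970 and 0.993, with 0 identical pairs. The number of arrays, 5 in each group, limits the precision. Nothing in the labels gives a batch, litter or sex. The p-values reflect the spread among the livers, and a batch, litter or sex difference between the groups would not show in them.

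After 37 array control probe sets were left out, 25958 were tested, of which 21613 carried 1 symbol, 638 several and 3707 none. The platform annotation was checked against RefSeq (GRCm38.p6) through gene identifiers, which changed 0 symbols. The array files name no build, so no gene coordinates are given. Mutant minus control was tested two-sided with limma 3.58.1 in R 4.3.3 (functions lmFit and eBayes), p-values were adjusted by Benjamini-Hochberg over every probe set tested, and differences were called at an adjusted p under 0.05. A gene of a list stood by its probe set with the highest mean, which gave 12366 genes. Exact permutation tests ran over the 252 splits of the livers.

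The 6 genes and the lists were chosen with earlier results of these data known. Named were all probe sets of the 6 genes, the 4 genes of each list with the smallest p, and the 5 genes most like Dicer1 and Drosha; other genes are named where a count needed it. The limma step was tested on simulated data. Alternatives were other scalings, a filter on dim probe sets, 1 probe set or the mean of all for each gene, other eBayes options, array weights, a replicate block and leaving out each liver.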

Additional observations from a re-analysis of the deposited data

Results flagged for a closer look

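In 5 of the 24 sets of 5 livers tested for the 12 probe sets, 1 liver stood apart from the rest of its group by Dixon's criterion at the 95% level, which chance alone meets in about 1 of 20 groups. Mutant replicate 1 was low for Dgcr8 on 1455311_at, at 5.96 against 6.17 to 6.20 in the other mutants. Mutant replicate 2 was low for Xpo5 on 1428560_at, at 5.66 against 6.59 to 6.76, and for Tarbp2 on 1423616_at, at 7.44 against 7.57 to 7.60. Control replicate 5 was low for Tarbp2 on 1438952_x_at, at 7.61 against 7.87 to 7.88 in the other controls, and control replicate 3 was low for Prkra on 1448923_at, at 8.37 against 8.61 to 8.69. No liver stood apart in this way for Dicer1 or Drosha.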

How the results depend on the processing

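The falls of both Dicer1 probe sets, the gap between them and the rise of Drosha on 1438505_s_at kept their direction and call under every alternative in which they were run, with differences from -2.36 to -2.23, -1.07 to -0.97, -1.35 to -1.16 and 0.75 to 0.95. Fits without 1 liver gave 1 to 2 probe sets of the 6 genes called higher. Other scalings moved that number to 3 (quantile) or 2 (array medians, 75th percentiles), as did leaving out dim probe sets (2) and array weights (2). With 1 probe set for each gene, 1 was called lower, since only 1 of Dicer1 then entered. Over all probe sets, fits without 1 liver called 776 to 2115 higher and 770 to 3194 lower, the most without mutant replicate 5 and the fewest without mutant replicate 4. For cofactors these fits gave 0 to 2 higher and 1 to 2 lower, for exportins and the Ran cycle 0 to 4 lower, for host genes 2 to 5 higher and 0 to 4 lower, and for other ribonucleases 1 to 8 lower. The higher cofactors were 4 with quantile normalization and 1 with array medians. The lower exportin genes were 2 with quantile normalization, 1 probe set for each gene or the mean of all probe sets, and 4 with array weights. The higher host genes were 7 with array weights, and the lower ones 1 with 75th percentiles or with trend and robust options.

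Mutant and control livers share replicate numbers, but livers of 1 number showed little shared deviation (r from -0.179 to 0.151). The main fit did not use the numbers as pairs, and these values of r cannot exclude a weak pairing. With the replicate block, 907 probe sets were called higher, and the lists had 1 higher cofactor, 0 lower exportin genes, 1 higher sensor, 1 lower host gene and 2 lower ribonucleases. The causes of these shifts were not tested.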
